A study of Drosophila melanogaster with 4 samples.

Results

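The 278 regions described here are Su(Hw)-bound stretches that lie in or next to repeat-rich parts of the Drosophila melanogaster genome, out of 5892 enriched regions in the authors' combined list. They were chosen by position alone. The rule takes every enriched combined region on the heterochromatic scaffolds 3LHet, 3RHet and XHet, on U and on chromosome 4, and those whose midpoint lies within 2 Mb of the centromere-proximal end of the listed sequence of 2L, 3L, 3R or X. By class, 67 regions lay at the end of 3R, 75 at the end of X, 29 at the end of 3L and 16 at the end of 2L, while U held 41, 3LHet 19, chromosome 4 13, XHet 10 and 3RHet 8. The remaining 5614 regions, on the rest of those arms, on 2R and on 2RHet, are called the other regions. The rule takes neither the heterochromatic scaffold 2RHet, with 15 regions, nor an end of 2R, so some of the other regions lie in like sequence.

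Chromatin was immunoprecipitated with an antibody named SU(HW)-HB from whole wild-type Oregon-R embryos, fixed with formaldehyde at 14 to 16 h. There were 2 ChIP samples and 2 input DNA samples, and each ChIP sample was paired with the input of the same number. Each ChIP replicate has its own deposited list of regions, and a combined list covers both. A region carries the authors' enrichment score on a log2 scale. In the combined list enriched regions had positive scores and stretches marked as depleted negative ones. How the zero point was set against input is unknown here, so scores rank regions and are not folds over input. Positions are those of FlyBase release 5, counted from 1.

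Su(Hw), suppressor of Hairy wing, is a zinc-finger DNA-binding protein best known for binding the insulator of the gypsy retrotransposon, where it acts together with CP190 and Mod(mdg4). An insulator is a sequence that can block an enhancer from acting on a promoter when placed between them. Pericentromeric heterochromatin is the compact, repeat-rich chromatin around the centromeres. It carries HP1 and methylated lysine of histone H3, and holds many transposons and satellite repeats next to a small number of genes. Chromosome 4, the dot chromosome, also carries HP1 over much of its length although many of its genes are active. In this genome build, the Het scaffolds are heterochromatic sequence assigned to an arm, and U joins scaffolds that had been assigned to none, so neighbours on U need not be neighbours on a chromosome. The files hold no measure of heterochromatin, so a class name below states where a region lies and not the chromatin found there in these embryos.

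There is 1 group of 2 ChIP samples, and regions of a list share their libraries. No p-value is therefore given. Shares carry exact binomial and densities exact Poisson 95% intervals, which cover the counting of regions only. The labels do not say that the replicates came from separate embryo collections. Whole embryos were used, so binding in few cells and weak binding in many cannot be told apart. Read depth is unknown, and the share of each sequence to which reads can be assigned is not known, which matters most for repeat-rich sequence.

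Listed Su(Hw) regions were sparse near the centromeres of 2L and 3L, less so on 3R and X. The 4 ends together held 23.4 regions per Mb (95% interval 20.1 to 27.0), against 50.9 (49.4 to 52.4) on the rest of the same arms. In the replicate 1 list the values were 19.6 in the ends and 43.4 on the rest, and in the replicate 2 list 17.9 and 40.7. The direction was thus the same in the 3 lists. The scaffolds, U and chromosome 4 together held 5.46 regions per Mb (4.39 to 6.70), with 3.48 in the replicate 1 list, 3.96 in the replicate 2 list and 3.06 counting combined regions found in both replicates. Single sequences ranged widely, with 49 per Mb on the short XHet scaffold, 9.62 on chromosome 4, 7.43 on 3LHet, 4.08 on U and 3.18 on 3RHet. The 10 XHet regions form 1 run, described below, so their density is not that of separately placed regions. The 278 regions covered 2.44% of the sequence they were taken from, and the other regions 9.47% of the remaining sequence. That remaining sequence includes Uextra, 2LHet and YHet, on which no enriched region was listed.

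On 2L, 5 of the 16 regions lay in the first 1.5 Mb from the centromere-proximal end and 11 in the next 0.5 Mb. On 3L the same counts were 6 and 23. Both ends thus held a long, sparse stretch. From 1.5 to 2 Mb the density of 3L was 46.0 regions per Mb, as on the rest of 3L (46.0), whereas that of 2L was 22.0, still below the rest of 2L (47.6). The longest run without a listed region at the end of 2L spanned 806 kb, from 22054197 to 22859733, and at the end of 3L 552 kb, from 23214051 to 23766105. The region that closes the 2L run on the centromere side, starting at 22859734, was in neither replicate list. Neither replicate listed a region in the first 0.5 Mb of 2L. The region that closes the 3L run, starting at 23766106, was held by replicate 2 alone. Elsewhere on these arms, the largest distance between neighbouring midpoints was 173 kb on 2L and 297 kb on 3L. Both replicate lists had 0 to 4 regions in each of the first 3 bins of 0.5 Mb on both arms.

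The ends of 3R and X were less sparse. On 3R, 38 of the 67 regions lay in the first 1.5 Mb, and the first region started at position 110 of the listed sequence, with a combined score of 0.27 and a replicate 1 score of 0.43. Density on 3R rose with distance over 4 bins of 0.5 Mb, with 18.0, 32.0, 26.0 and 58.0 regions per Mb, apart from a dip at 1 to 1.5 Mb. Only the last of these exceeded the rest of 3R (53.1). On X the bin nearest the centromere held 44.0 regions per Mb, the next 12, and those after it 46.0 and 48.0. All of these X bins lay below the rest of X (56.8). The second X bin was low in both replicate lists, with 5 regions in replicate 1 against 20 in its first bin, and 2 in replicate 2 against 18. The longest run without a region at the X end, from 21583829 to 21843249 (259 kb), lay in it. Between midpoints this gap measured 262 kb, against 163 kb at most elsewhere on X. On 3R the longest run was 154 kb, from 1178271 to 1332035, and the largest distance between midpoints was 156 kb, against 161 kb elsewhere on 3R.

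**Figure D1:**
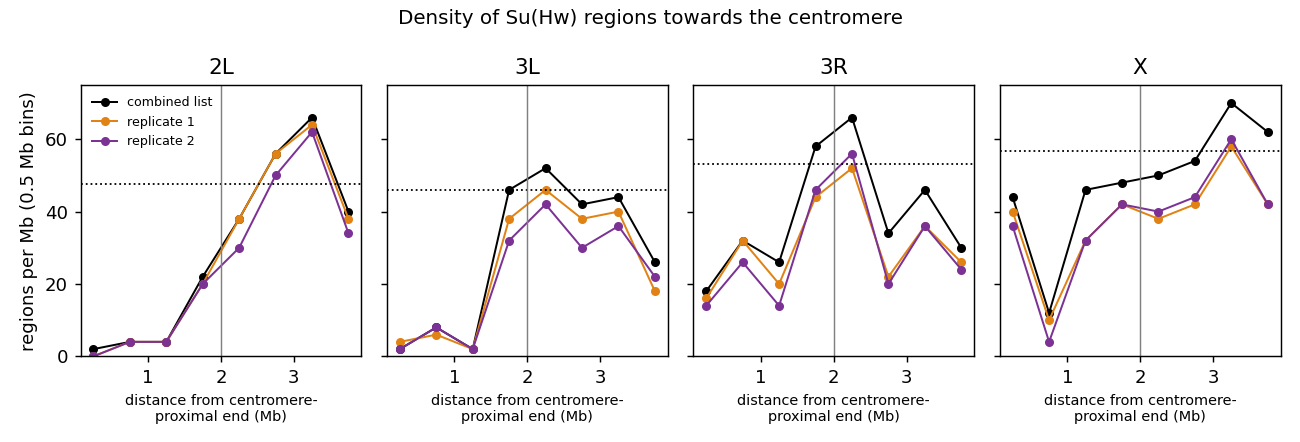
Regions per Mb (vertical axis) in bins of 0.5 Mb against the distance from the centromere-proximal end of the listed arm sequence in Mb (horizontal axis), for the combined list and each replicate. The grey line marks the 2 Mb limit and the dotted line the combined density on the rest of the arm; 2L and 3L stay at or below 8.0 per Mb over the first 1.5 Mb, whereas X starts at 44.0.

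At the limit of 2 Mb, the regions just inside scored 2.67 on 2L, 0.90 on 3L, 0.16 on 3R and 0.38 on X in the combined list. Those just outside scored 0.99 on 2L, 2.63 on 3L, 2.80 on 3R and 0.57 on X.

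Combined scores of the 278 regions had a median of 0.95, against 0.92 for the other regions. This small difference turned round in the replicate lists: the medians were 1.05 against 1.15 in replicate 1 and 1.33 against 1.42 in replicate 2. The class medians lay farther apart than that, though a median over few regions is less stable. Median combined scores ran from 0.43 on 3RHet (n = 8) and 0.61 at the end of 3R (n = 67) to 1.52 on U (n = 41) and 1.85 on chromosome 4 (n = 13). Among regions found in both replicates, the SD of the combined score was 1.55 on U (n = 17), 1.07 on chromosome 4 (n = 9) and 0.13 on XHet (n = 10), against 0.88 over the other regions (n = 4146).

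The 278 regions held 14 of the 100 best combined scores, or 5.04% of their number (2.78% to 8.31%), where 1.70% of all enriched regions were among the 100. Of the 14, 7 lay on U, 2 each at the ends of 3R and X, and 1 each at the end of 3L, on 3LHet and on chromosome 4. Without U, 7 of 237 were among the 100 best (2.95%, 1.20% to 5.99%), an interval that takes in the background share. Scores above 3 were held by 24 of the 278, or 8.63%, where 4.45% of all enriched regions scored above 3. On U alone it was 10 of 41, or 24.4% (12.4% to 40.3%), and without U 14 of 237, or 5.91% (3.27% to 9.71%), an interval that holds the background share.

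**Figure D2:**
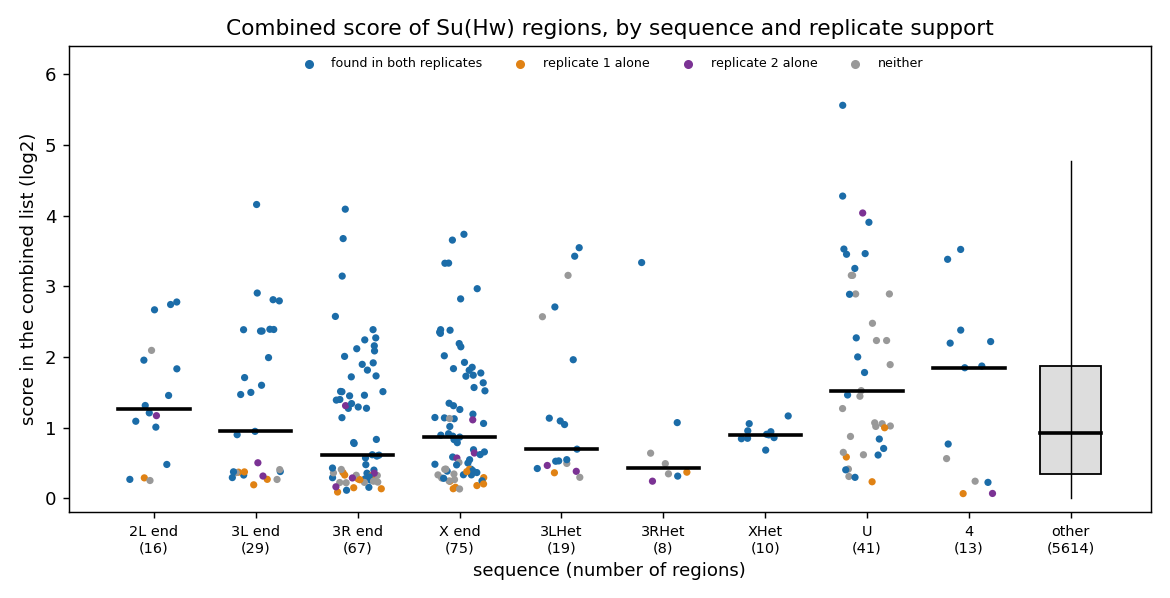
Combined score on the log2 scale (vertical axis) of every one of the 278 regions (points, spread sideways for clarity) by sequence, coloured by whether a replicate list held an overlapping region, with the class median as a bar. At the right, a box from the lower to the upper quartile with its median and a line from the lowest to the highest score stands for the 5614 other regions; XHet points sit between 0.68 and 1.16, whereas U points range from 0.23 to 5.56.

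A combined region was counted as found in a replicate when it overlapped a region of that replicate's list by at least 1 bp. Both replicates held 182 of the 278 regions, or 65.5% (59.6% to 71.0%), where 73.5% of all enriched regions were found in both. Neither replicate held 53, or 19.1% (14.6% to 24.2%), where the background was 12.9%. On U, 17 of 41 were found in both (41.5%, 26.3% to 57.9%) and 20 in neither (48.8%, 32.9% to 64.9%). The 4 ends had 131 of 187 in both (70.1%, 62.9% to 76.5%), an interval that holds the background share. Without U, the share found in both was 69.6% (63.3% to 75.4%) and that in neither 13.9% (9.78% to 19%), and both intervals hold the background shares. XHet had all 10 in both, 3LHet 12 of 19, chromosome 4 9 of 13 and 3RHet 3 of 8.

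U carried the strongest region of the whole combined list, at 4251754 to 4254200. It scored 5.56 in the combined list, with 4.63 for replicate 1 and 6.24 for replicate 2, and it ranked first. The region of U at 9904636 to 9907158 ranked 7th, and its combined score was 4.28, with 4.06 for replicate 1 and 4.46 for replicate 2. That at 3205952 to 3208620 scored 3.90 in the combined list, with 3.55 for replicate 1 and 4.32 for replicate 2. These 3 regions were found in both replicates, and each scored higher in replicate 2.

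Another 4 strong regions of U were also in both replicate lists. The region at 1532056 to 1534904 scored 3.53 in the combined list, with 3.16 for replicate 1 and 3.89 for replicate 2. At 9563364 to 9565560 the scores were 3.46, 2.52 and 4.19 in the same order, and at 6831892 to 6835100 they were 3.45, 3.49 and 3.79. The widest region of U, at 5685618 to 5690054 (4437 bp), scored 3.25, 3.08 and 3.75. The remaining 3 of the 10 best on U lacked a partner in at least 1 replicate. At 9550124 to 9552326 the combined score was 4.04 and the replicate 2 score 5.87, while replicate 1 listed nothing there. The regions at 3030896 to 3031898 and 9260372 to 9261376 had the same combined score of 3.15, were 1003 bp and 1005 bp wide, and were in neither replicate list.

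Regions of U with and without replicate support differed. The 17 found in both replicates had a median width of 2289 bp and a median combined score of 2.27. The 20 found in neither had a median width of 1026 bp and a median score of 1.36, and 15 of them scored above 1. Another 3 were found in replicate 1 alone and 1 in replicate 2 alone. Outside the 278 regions, the 709 regions found in neither had a median width of 1249 bp and a median score of 0.30, and 11 scored above 1. High scores without replicate support were thus 19 among 53 such regions here, and 15 of the 19 lay on U. No member of U lay within 10 kb of another, edge to edge.

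Width went together with replicate support. Of the 278 regions, 27 were narrower than 1100 bp, or 9.71% (6.50% to 13.8%), where 3.80% of all enriched regions were. Of the 27, 14 lay on U, and without U the share was 5.49% (2.95% to 9.20%), an interval that holds the background. None of the 27 was found in both replicates and 25 were found in neither, where 90.6% of all narrow regions were in neither. Among the narrow regions elsewhere, 0 of 197 were in both and 178 in neither, so the lack of support was not limited to these sequences. The narrowest regions of the replicate lists measured 1301 bp in replicate 1 and 1303 bp in replicate 2, so no region this narrow exists in either replicate list. The 14 narrow regions of U had a median combined score of 2.06, with 12 of the 14 above 1, against a median of 0.36 and 8 of 197 above 1 for narrow regions among the other regions.

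Some scores repeated exactly. In the combined list 29 of the 278 shared their exact score with another region (tolerance 1e-11), or 10.4% (7.10% to 14.6%), where 5.07% of all enriched regions did. Without U it was 17 of 237 (7.17%, 4.23% to 11.2%), an interval that holds the background share. Of the 29, 12 lay on U, 19 were in neither replicate list, and 13 were among the 27 narrow regions while 16 were wider. Among the 270 other regions that shared a score, 115 were in neither replicate list and 37 were narrow. The score of 3.15 was held by 3 regions, those of U named above and one on 3LHet. A further 5 narrow regions of U and 3LHet lay below it by log2 of small whole-number ratios: 2.89 at U 900712 to 901712 and at U 4157824 to 4158824 (ratio 5 to 6), 2.57 at 3LHet 1558584 to 1559592 (2 to 3), 2.48 at U 7470428 to 7471428 (5 to 8) and 1.89 at U 3922514 to 3923518 (5 to 12). A wider region at the end of X, 20707334 to 20708838 (1505 bp, replicate 2 alone), matched too, with a score of 0.57 (1 to 6). In all, 9 of the 278 matched (3.24%), the 3 at 3.15 included, where 31 of all 5892 enriched regions did (0.526%). Whole numbers up to 12 were tried, with a tolerance of 1e-09. The starting score of 3.15 was taken because it was the commonest among the 278, after the values had been seen. The matches are therefore a description, and their share is not a like comparison with that over all regions. How many reads stand behind these scores was not tested.

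**Figure D3:**
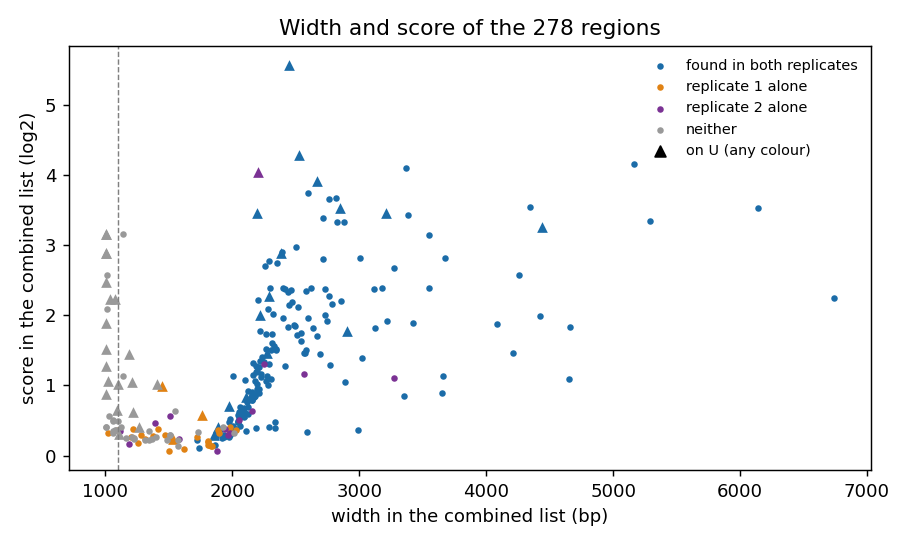
Combined score on the log2 scale (vertical axis) against width in bp (horizontal axis) for the 278 regions, coloured by replicate support, with triangles for U and a dashed line at 1100 bp. Of the 53 regions found in neither replicate, 25 lie in a column left of the dashed line that reaches 3.15, and the others are wider. Wider regions found in both replicates reach 5.56.

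Chromosome 4 held a few strong and a few weak regions. The strongest was at 431742 to 437882, 6141 bp wide, and its combined score was 3.52, with 4.33 for replicate 1 and 3.35 for replicate 2. Its neighbour at 426330 to 430418, less than 2 kb away, scored 1.87 in the combined list, with 2.03 for replicate 1 and 2.18 for replicate 2. The region at 1132508 to 1135222 scored 3.38, 3.21 and 3.50 in the same order. Chromosome 4, 1.35 Mb long in this build, had 9.62 regions per Mb (5.12 to 16.4).

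Another 5 regions of chromosome 4 scored from 0.77 to 2.38 in the combined list, and all were found in both replicates. The region at 961016 to 963748 had 2.38 in the combined list, with 1.87 for replicate 1 and 2.82 for replicate 2. That at 1166110 to 1168308 had 2.22, 2.29 and 2.18, and that at 509228 to 512080 had 2.19, 1.84 and 2.65. The replicates differed most at 1104014 to 1106506, where the combined score was 1.85, with 0.81 for replicate 1 and 2.62 for replicate 2. At 67108 to 69220 the scores were 0.77, 0.13 and 1.31, so this region too was stronger in replicate 2.

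The other 5 regions of chromosome 4 were weak. At 999698 to 1001422 the combined score was 0.22, with 0.38 in replicate 1 and 0.36 in replicate 2. Replicate 2 alone held the region at 180838 to 182720, with 0.81 there and 0.07 in the combined list. Replicate 1 alone held the one at 684830 to 686328, with 0.45 there and 0.07 in the combined list. The regions at 3248 to 4276 (0.56) and 1321774 to 1323002 (0.24) were in neither replicate list.

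The 10 regions of XHet formed a single run. From 89438 to 148888 they took up 59.5 kb of a scaffold of 204 kb, with 89.4 kb before and 55.2 kb after the run holding no listed region in any of the 3 lists. Neighbouring midpoints lay 6367 ± 796 bp apart (SD, n = 9 distances), from 5311 to 7615 bp. The replicate lists gave 6363 ± 753 bp in replicate 1 and 6370 ± 740 bp in replicate 2. Widths were alike too, from 2093 to 2267 bp for 9 regions, and 3355 bp for the one starting at 100130. In the replicate lists the widths ran from 1986 to 2161 bp and from 2060 to 2250 bp, so this wide region stood out in the combined list alone.

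Scores along the XHet run were close to each other. In order of position, combined scores were 0.90, 0.94, 0.84, 1.05, 0.86, 0.90, 0.95, 1.16, 0.85 and 0.68. Replicate 1 gave 1.09, 0.97, 0.99, 1.05, 0.84, 0.69, 0.94, 0.88, 0.60 and 0.56, and replicate 2 gave 0.87, 0.94, 0.85, 1.14, 0.93, 1.22, 1.01, 1.45, 1.07 and 0.81. The first 3 regions scored higher in replicate 1 and the 7 after them higher in replicate 2. The first 5 averaged 0.99 ± 0.10 in replicate 1 and 0.95 ± 0.11 in replicate 2, and the last 5 averaged 0.73 ± 0.17 and 1.11 ± 0.24 (SD over 5 regions each). This split was made after the values were seen, and neighbouring regions are not replicates.

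**Figure D4:**
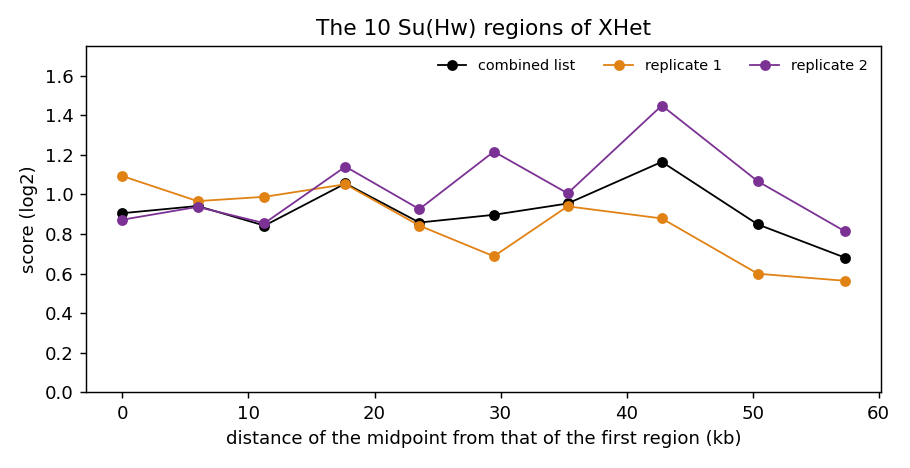
Score on the log2 scale (vertical axis) of the 10 XHet regions against the distance of each midpoint from the first in kb (horizontal axis), in the combined list and each replicate. The points span 57.3 kb and lie farther apart from 35.3 kb on, and the replicates cross after the first 3 regions.

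On 3LHet, 4 regions with scores in both replicates stood above the rest. At 55606 to 59954 the scores were 3.54 in the combined list, with 3.01 for replicate 1 and 4.34 for replicate 2. At 1283634 to 1287020 they were 3.42, 3.06 and 3.89 in the same order, and at 2544382 to 2546976 they were 1.96, 1.50 and 2.40. The region at 1505650 to 1507908 had 2.71 in the combined list, with 1.37 for replicate 1 and 3.70 for replicate 2. Its difference of 2.33 between replicates was the largest among the 278 regions. The next region, at 1509998 to 1512300 and about 2 kb away, had 1.09, 1.36 and 1.03, and so was higher in replicate 1.

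The other 3LHet regions found in both replicates scored from 0.42 to 1.13 in the combined list. They began at 34972 (1.13), 216878 (0.69), 1329060 (0.42), 1432762 (0.53), 1601710 (1.04), 1620346 (0.52) and 2278864 (0.55). Replicate 1 alone held the region starting at 772584 (combined score 0.36), and replicate 2 alone those starting at 1595186 (0.46) and 1847878 (0.38). The 4 in neither list began at 63112 (0.49), 261008 (3.15), 1558584 (2.57) and 2512598 (0.30). So 2 of the 6 best scores on 3LHet had no counterpart in a replicate.

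On 3RHet, 1 of the 8 regions was strong. The region at 1522040 to 1527328, 5289 bp wide, scored 3.33 in the combined list, with 2.98 for replicate 1 and 3.81 for replicate 2. The region at 2106194 to 2108296 scored 1.07, 0.94 and 1.23, and that at 268104 to 269976 scored 0.31, 0.39 and 0.55. These 3 were the ones found in both replicates. Combined scores of the others were 0.35 (start 140434), 0.64 (1011500) and 0.49 (1663602), in neither replicate list, 0.37 (1585076), in replicate 1 alone, and 0.24 (264140), in replicate 2 alone.

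The ends of 3L and 3R each held a region with a combined score above 4. On 3L it lay at 22886378 to 22891544, 1655 kb from the end, and its combined score was 4.16, with 4.26 for replicate 1 and 4.29 for replicate 2. On 3R it lay at 1973764 to 1977132, and its combined score was 4.09, with 4.45 for replicate 1 and 4.33 for replicate 2. Replicate 2 was the higher on 3L and the lower on 3R.

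The sparse inner part of 3L was not free of strong regions. At 24456160 to 24459838, 85.6 kb from the end and the nearest listed region to it, the scores were 2.81 in the combined list, with 2.33 for replicate 1 and 3.38 for replicate 2. In the same part, regions found in both replicates started at 23799410 (combined score 2.39), 23891256 (2.36) and 23915104 (2.38), so 4 of the 6 regions in the first 1.5 Mb scored above 2. These 3 were named after their values were seen. The other leading 3L regions lay farther out, at 22974228 to 22976618 (combined score 2.90), 22672768 to 22675482 (2.79) and 22908866 to 22912414 (2.39). On 2L the region nearest the end, at 22859734 to 22860744, scored 2.09 in the combined list but was 1011 bp wide and in neither replicate list. The next leading 2L region towards the end, at 22051794 to 22054196, scored 1.95 in the combined list, with 1.58 for replicate 1 and 2.33 for replicate 2. The 3 best of 2L lay between 1687 and 1933 kb from the end, at 21214138 to 21216428 (2.78), 21323374 to 21325722 (2.74) and 21076768 to 21080042 (2.67), and were found in both replicates.

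On 3R, the second best region lay 789 kb from the end, at 787296 to 790112, and its combined score was 3.67, with 3.57 for replicate 1 and 3.87 for replicate 2. It belonged to a run of 5 regions from 772870 to 801188, each less than 10 kb from the next, which was the largest such run of the 4 ends. The run also held the widest of the 278 regions, at 794446 to 801188 (6743 bp), with 2.24 in the combined list. Replicate 1 listed this stretch as 2 regions, the better with 1.85, and replicate 2 as 1 with 2.91. The other leading 3R regions lay at 1948480 to 1952028 (3.14), 1595486 to 1599742 (2.57) and 483796 to 486416 (2.39).

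On X, strong regions reached close to the end. The region at 22225422 to 22228248, 196 kb from the end, scored 3.33 in the combined list, with 3.43 for replicate 1 and 3.43 for replicate 2. At 22053054 to 22055816, 368 kb from the end, the scores were 3.65, 3.74 and 3.61 in the same order. The best of the X end, at 20630070 to 20632664, had 3.73, 3.72 and 3.82, and the others of the leading 5 lay at 21044912 to 21047790 (combined score 3.32) and 21288184 to 21290688 (2.96). Over these 5 regions the replicates differed by at most 0.14, with 3 higher in replicate 1 and 2 in replicate 2.

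Replicate 2 scores were more often the higher ones on the scaffolds, U and chromosome 4. Among the 51 regions there that both replicates held, 38 scored higher in replicate 2 (74.5%, 60.4% to 85.7%), with a median difference of 0.22 (SD 0.61). In the 4 ends it was 83 of 131 (63.4%, 54.5% to 71.6%) with a median of 0.05 (SD 0.42). Over all regions found in both, 54.1% scored higher in replicate 2, with a median of 0.02 (SD 0.42). The lists may differ in their normalization, so these differences are described and not tested.

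On the scaffolds, U and chromosome 4 the shift was wider among strong regions. With a combined score above 3, 11 of 12 regions of the scaffolds, U and chromosome 4 scored higher in replicate 2 (91.7%, 61.5% to 99.8%), where 56.9% of all regions that strong did. Their median difference was 0.75 (SD 0.70, n = 12), against 0.03 (SD 0.35, n = 235) for the other regions above 3 and 0.02 (SD 0.21, n = 8) for the 4 ends. All 7 of these on U were higher in replicate 2. The single exception was the strongest region of chromosome 4, which was 0.98 lower in replicate 2. With combined scores between 1 and 3 the count on the scaffolds, U and chromosome 4 was 15 of 18 (83.3%, 58.6% to 96.4%), with a median difference of 0.25, and with scores up to 1 it was 12 of 21 (57.1%, 34.0% to 78.2%), with a median of 0.06. The 4 ends showed no such order, with medians of 0.05 between 1 and 3 and 0.06 up to 1.

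Differences over 1 ran one way here, as they did over the whole list with 1 exception. Of the 182 regions found in both replicates, 14 scored over 1 higher in replicate 2, or 7.69% (4.27% to 12.6%). Over all regions found in both it was 219 of 4328, or 5.06%, a share that the interval holds. None of the 182 scored over 1 higher in replicate 1, where 1 of the 4328 did (0.0231%). After the region on 3LHet already given, the next largest difference was 2.13, at X 21506142 to 21508406, where the combined score was 1.73, with 0.30 for replicate 1 and 2.43 for replicate 2. Then came the region of chromosome 4 at 1104014 (1.81) and those of U at 9563364 (1.67) and 4251754 (1.60), whose scores are given above.

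**Figure D5:**
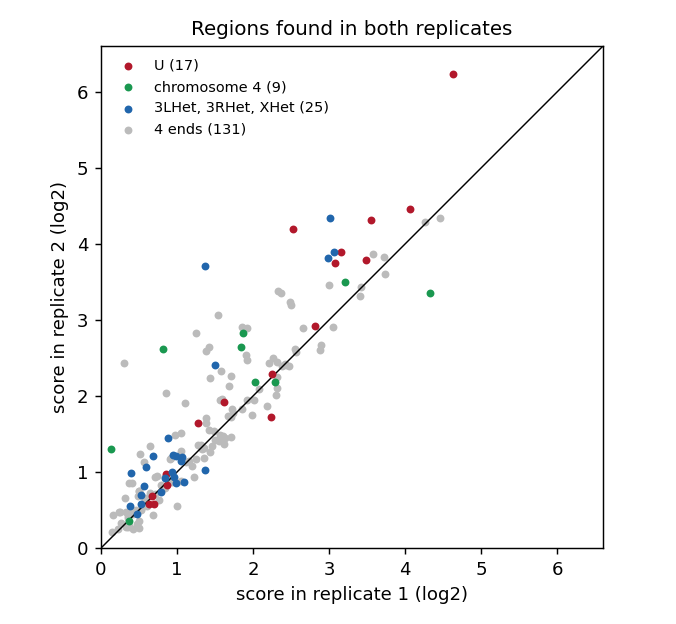
Score in replicate 2 (vertical axis) against score in replicate 1 (horizontal axis), both on the log2 scale, for the 182 regions found in both replicates, by class. The line marks equal scores; points of U with scores above 3 lie above it, by 0.30 to 1.67.

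Each replicate listed regions in these sequences that the other lacked, 31 of 215 in replicate 1 (14.4%) and 26 of 209 in replicate 2 (12.4%). Among the other regions the shares were 12.2% in replicate 1 and 5.64% in replicate 2. Of the replicate 1 regions here 3 were missing from the combined list, where 1.02% of that whole list were, and of the replicate 2 regions 11, where 0.729% were. The strongest of replicate 1 alone was at 3L 24416302 to 24417642 (2.47), followed by U 4230705 to 4232218 (1.63), both missing from the combined list, and U 4102805 to 4104190 (1.35). The strongest of replicate 2 alone was the region of U at 9550959 to 9552320 (5.87), followed by U 6127977 to 6129354 (3.74), which is missing from the combined list, and 3R 1671368 to 1673702 (2.06). On chromosome 4, 4 of the 13 regions of replicate 2 had no counterpart in replicate 1, against 1 of the 10 regions of replicate 1.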

How the data were processed

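ChIP and input libraries of 14 to 16 h embryos were processed by the authors using Bowtie (version 0.12.7), as the submitters' processing notes state. The sources used here do not name the region caller, its threshold or how ChIP was scaled to input. The deposited lists hold the authors' log2 score per region, in FlyBase release 5 per the file headers. That the base is 2 was settled from the values: distinct scores differed by exactly 1 in 44, 93 and 73 pairs in the combined, replicate 1 and replicate 2 lists, and by the natural or decimal logarithm of 2 in 0. Calls were made per replicate, and the combined list shares their libraries.

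Regions marked as depleted were left out. Overlap used at least 1 bp, and the best-scoring partner gave a replicate's score. The 210 regions with a partner in replicate 1 and 197 in replicate 2 were also obtained with bedtools 2.31.1, and the steps were tested on simulated data. The arithmetic used Python 3.11.15, numpy 2.4.6, pandas 2.3.3 and scipy 1.17.1, and figures matplotlib 3.10.9. Which end is centromere-proximal was taken from the arms' standard orientation, and sequence lengths in the file headers were not corrected for assembly gaps.

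The members, lists and named sites were chosen with earlier results of these data known. Named sites were every region of chromosome 4 and the Het scaffolds, the 10 best of U, the 5 best of each end, the 3 widest, the 3 best of each replicate alone, the 5 largest replicate differences and the longest empty stretches. Alternatives tried were other overlap rules, end lengths of 1 and 3 Mb, each replicate's list, the listed span, and leaving out U, XHet or narrow regions. Genes and base sequences of the regions were not analysed: the available gene table is of Release 6, and positions were not moved between builds.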

Additional observations from a re-analysis of the deposited data

Results flagged for a closer look

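In the sequences described here, 11 regions listed by replicate 2 were missing from the combined list, of 209 listed there, and 3 of 215 of replicate 1. Elsewhere it was 23 of 4453 for replicate 2 and 48 of 4784 for replicate 1, and over whole lists 0.729% and 1.02%. The 11 were picked out because they lie in data that the comparisons of combined regions did not use. Of the 11, 3 lay on U, 3 on 3LHet, 3 on chromosome 4, 1 on 3RHet and 1 at the end of 3R. The strongest were at U 6127977 to 6129354 (replicate 2 score 3.74), chromosome 4 1296614 to 1298116 (1.62), 3LHet 1238977 to 1240646 (1.37) and U 8907036 to 8908415 (1.17). The cause was not tested.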

How the results depend on the processing

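No paired analysis was possible because no result comes from a test and no region list was used for the inputs. The share found in both replicates (65.5%) moved to 83.0% in the better-scoring 50% of the combined list and to 72.5% without regions narrower than 1100 bp, an alternative added after seeing the data. No region that narrow was found in both anywhere in the list, so leaving them out raises the share over all regions too. Shares over all regions under these settings are not given, so the 73.5% above is not their background. With 1 replicate left out, it became the share found in the other and could only rise, to between 70.9% and 75.5%. The density of the 4 ends (23.4 per Mb) moved to 15.2 with ends of 1 Mb, 31.9 with ends of 3 Mb and 16.4 for regions found in both replicates, and ranged from 17.9 to 19.6 in the replicate lists. The density of the scaffolds, U and chromosome 4 (5.46 per Mb) moved to 5.84 over the listed span and to 3.06 for regions found in both, and ranged from 3.48 to 3.96 in the replicate lists. The median score (0.95) moved to 1.34 for regions found in both and ranged from 1.05 to 1.33 in the replicate lists. Its difference from the other regions (0.0270) turned to -0.0705 for regions found in both and -0.0576 without U, was -0.0928 in the list of replicate 1 and -0.0900 in that of replicate 2, and rose to 0.0876 without XHet. The share of narrow regions (9.71%) moved to 21.6% below 1500 bp and 5.49% without U. Regions that share a score fell to 3 among those found in both, against 29. Like values over all regions, below 1500 bp or found in both, are not given here. The difference between replicates and the XHet spacing kept their values within their spread under the alternatives tried. The cause of these moves was not tested. Depth limits are unknown.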

Other observations

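The combined list marked 3 stretches of these sequences as depleted, and replicate 2 listed the same 3 as enriched. The stretch on U at 262362 to 263996 had a combined score of -0.02, and replicate 2 held an enriched region over its whole length with a score of 0.33. On 3LHet at 1396046 to 1397790 the combined score was -0.14 and that of the enriched region of replicate 2 was 0.20. On 3RHet at 2377464 to 2379314 the combined score was -0.02 and that of replicate 2 was 0.15, while replicate 1 marked this stretch as depleted too. Replicate 1 listed none of the 3 as enriched. Of the 2 stretches marked as depleted elsewhere, the one on 3L was listed as enriched by both replicates, with 0.16 in replicate 1 and 0.18 in replicate 2, and the one on 2R by neither. These 3 regions of replicate 2 are among its 11 that the combined list of enriched regions lacked.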
